A study of Mus musculus with 2 samples.

Results

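Proliferating proximal tubule cells are the cells that the study's deposited annotation calls Prolif. PT. They number 171 of 11759 annotated cells, 155 of them in a library of kidney after ischaemia-reperfusion injury (IRI) and 16 in a library of control kidney. They were taken by that name alone, and all of them lie in a single deposited cluster, number 16 of 29 clusters. The series holds 1 single-cell library per condition, each from wild-type C57BL/6 kidney at 9 weeks of age. The IRI library comes from unilateral IRI combined with removal of the opposite kidney, and the control library is called a normal control, with no nephrectomy named, so ischaemia and the loss of a kidney cannot be told apart. The time after injury and the number of animals per library are not given in the labels. Both kidneys were digested with Liberase and DNase I and strained, so a cell type's share depends on what survived digestion. The comparison cells were the proximal tubule segments (PT-S1, PT-S2 and PT-S3) and the Injured PT cells of the IRI library. With 1 library per condition there is no spread between animals, so values are described without a test, and intervals cover counting error only.

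The proximal tubule reabsorbs most of the filtered sodium, phosphate, glucose and protein, and its cells rarely divide in the healthy adult kidney. After ischaemia, surviving tubule cells can re-enter the cell cycle and replace lost neighbours, while others stay in an injured state marked by Kim-1 (Havcr1) and Vcam1. A dividing cell copies its DNA in S phase with enzymes that make and join nucleotides, then in G2 and mitosis builds a spindle, condenses its chromosomes and degrades cyclins through the anaphase-promoting complex. Many genes of that late phase carry 2 short promoter elements, a cell-cycle genes homology region (CHR) and CCAAT boxes, read by the DREAM and MuvB complexes and by NF-Y.

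The promoters of 5 late-phase genes that are high in these cells are shown to make those elements visible. Each runs from 110 bases before the annotated start to 20 bases from it, 5′ to 3′ on the gene's strand, from the RefSeq promoters of build GRCm38.p6, and capitals mark the CHR core (TTTGAA or its reverse complement TTCAAA) and the CCAAT box (CCAAT or its reverse complement ATTGG). The windows are Ube2c at chr2:164769819-164769948 on the plus strand, and on the minus strand Top2a at chr11:99024170-99024299, Cdk1 at chr10:69352893-69353022, Ccnb2 at chr9:70421535-70421664 and Cdc20 at chr4:118437324-118437453.
Ube2c: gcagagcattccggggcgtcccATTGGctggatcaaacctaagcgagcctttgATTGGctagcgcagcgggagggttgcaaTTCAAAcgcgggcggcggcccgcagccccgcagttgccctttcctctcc
Top2a: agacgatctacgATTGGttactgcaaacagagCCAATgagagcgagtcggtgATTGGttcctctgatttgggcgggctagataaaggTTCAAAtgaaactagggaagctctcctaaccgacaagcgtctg
Cdk1: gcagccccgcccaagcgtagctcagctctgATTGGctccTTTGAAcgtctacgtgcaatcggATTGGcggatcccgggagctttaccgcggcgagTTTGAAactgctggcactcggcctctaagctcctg
Ccnb2: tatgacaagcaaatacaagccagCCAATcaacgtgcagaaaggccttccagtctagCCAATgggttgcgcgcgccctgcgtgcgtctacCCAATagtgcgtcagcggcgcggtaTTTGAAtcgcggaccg
Cdc20: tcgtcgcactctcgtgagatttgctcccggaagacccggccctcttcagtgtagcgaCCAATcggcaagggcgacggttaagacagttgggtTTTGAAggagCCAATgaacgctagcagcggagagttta

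Over windows of 300 bases (250 before the start and 50 from it), 12 of the 17 matched promoters of a list of 20 G2 and mitosis genes held the CHR core (70.6%). The core was found in 3 of 18 matched promoters of S phase genes (16.7%), 5 of 25 of proximal tubule identity genes (20%) and 4893 of all 27025 promoters (18.1%). CCAAT boxes were found in 15 of the 17 G2 and mitosis promoters (88.2%), in 12 of 18 S phase promoters (66.7%), in 6 of 25 identity promoters (24%) and in 10248 of all promoters (37.9%). Both elements stood together in 12 of 17 (70.6%), 2 of 18 (11.1%), 0 of 25 and 1925 of all promoters (7.12%). Both strands were searched and the motifs were searched separately. The promoters counted are the first listed for each gene symbol, leaving out chromosome 18. Birc5 and Nusap1 held neither motif in their windows. The lists were written with earlier results of these data known, and a match is a run of letters, not a bound site.

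The cells carried the markers of their name. The clusters were made from these same genes, so the levels describe the members and are no check of the name. Mean values per cell are corrected counts, the depth-adjusted molecule counts that the authors deposited. Ube2c, the ubiquitin-conjugating enzyme of the anaphase-promoting complex, averaged 0.761 in the 155 IRI members, 1.06 in the 16 control members, 0.00741 in Injured PT cells and 0.00583 in PT-S1 to S3 cells of the IRI library. It was above 0 in 58 of 155 IRI members (37.4%), in 1 of 135 Injured PT cells and in 15 of 3261 segment cells (0.46%). Birc5, a chromosomal passenger protein also called survivin, averaged 0.761 in IRI members, 0.75 in control members, 0.0296 in Injured PT and 0.0172 in the segments. Top2a, the topoisomerase that untangles chromosomes, averaged 0.342, and Mki67, which coats mitotic chromosomes, averaged 0.271 in IRI members. Cdk1, the kinase that drives entry into mitosis, was above 0 in 32 of 155 IRI members (20.6%) and in 1 of 16 control members. Each single marker was thus listed at 0 in most members. Summed, these 5 markers averaged 2.42 in IRI members, 2.94 in control members, 0.0889 in Injured PT, 0.0386 in the segments, 0.742 in Resid. Mac cells and 0.289 in T cells of the IRI library.

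They also carried the tubule part of the name. The 7 proximal tubule markers summed to 9.23 in IRI members and 9 in control members, against 13.8 in Injured PT and 14 in the segments, while cells of the same library that do not make these transcripts showed a background of 3.53 (Resid. Mac), 2.72 (vasculature) and 0.907 (T cells). Markers of other cells were low. The 11 macrophage markers summed to 0.503 in IRI members, with Adgre1 and Ms4a7 at 0, against 0.562 in the segments and 25 in Resid. Mac cells. The 7 pan-leukocyte markers summed to 0.174 in IRI members, with Cd53 at 0, against 0.132 in the segments and 15 in T cells. All 5 B cell markers in the table, 8 of 9 endothelial, 7 of 9 fibroblast and 4 of 5 podocyte markers were listed at 0 in all 155 members. The 6 thick ascending limb markers summed to 0.419 in IRI members, against 0.406 in the segments, and Umod, the uromodulin gene of that limb, was above 0 in 9 members.

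Sequencing depth differed strongly between the groups compared. The IRI library held 16816996 raw molecules (UMIs, each a tagged transcript) and the control library 24169073. The median was 1544 UMIs in IRI members, which ran from 335 to 14405, and 2934 in control members. It was 8267 in Injured PT cells and 1819 in the segments, where PT-S2 had 912, PT-S3 2338.5 and PT-S1 4716. Mitochondrial transcripts made up 26% of corrected counts in IRI members, 13.3% in control members, 31.9% in Injured PT and 24.2% in the segments. At least 2 leukocyte markers were found in 17 of 155 IRI members, 0 of 16 control members, 16 of 135 Injured PT and 362 of 3261 segment cells. Doublets were not called, and 55 cell barcodes occur in both libraries. Of the members, 2 IRI cells and 0 control cells have such a barcode.

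Proliferating proximal tubule cells were more frequent in the IRI library. They were 155 of its 5170 cells (3%, exact 95% interval 2.55 to 3.5) and 16 of 6589 control cells (0.243%, 0.139 to 0.394), a ratio of 12.3 (exact conditional interval 7.37 to 22.1). Among proximal tubule cells of all names they were 155 of 3551 IRI cells (4.36%) and 16 of 4843 control cells (0.33%), a ratio of 13.2. The ratio was 17.1 (6.32 to 65) among cells with under 1000 UMIs, from 55 IRI and 4 control members, and 9.46 (4.83 to 20.6) among cells with at least 2000 UMIs, from 66 IRI and 10 control members.

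As a reading of G2 or mitosis, cells with at least 2 of the list of 20 late-phase genes above 0 were counted. Among IRI members 88 of 155 met this (56.8%, 48.6 to 64.7), and among control members 9 of 16 (56.2%, 29.9 to 80.2). In Injured PT it was 6 of 135 (4.44%, 1.65 to 9.42) and in the segments 20 of 3261 (0.613%, 0.375 to 0.946). Segment cells drawn to match the members' depth gave 9 of 1395 (0.645%), and T cells gave 5 of 97 (5.15%). These genes helped to form the cluster, so the shares describe it. Of all 227 IRI cells with at least 2 of these genes, 88 were Prolif. PT (38.8%), 50 Resid. Mac (22%), 40 tDL, as the annotation abbreviates it (17.6%), 20 PT-S1 to S3 (8.81%) and 6 Injured PT.

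The share of members with at least 2 late-phase genes depended on depth. It was 5 of 25 under 500 UMIs (20%), 9 of 30 from 500 to under 1000 (30%), 19 of 34 from 1000 to under 2000 (55.9%), 20 of 27 from 2000 to under 4000 (74.1%) and 35 of 39 at 4000 UMIs or more (89.7%, 75.8 to 97.1). At 4000 UMIs or more the share was 5 of 117 in Injured PT (4.27%) and 14 of 904 in the segments (1.55%). The plot of this share against depth shows the members above the other groups in each depth bin that holds them. Members with at least 2 late-phase genes had a median of 2877.5 UMIs and the other 67 members 688, so a member without such genes was usually a shallow cell. No member had more than 14 of the 20 genes, and 31 had 0.

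**Figure D1:**
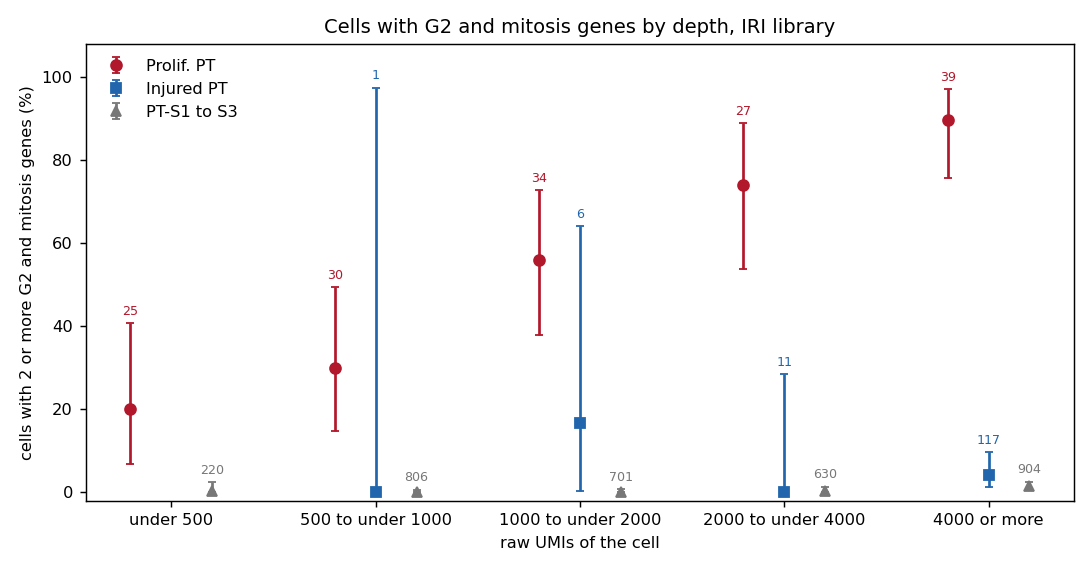
Share of cells with at least 2 of 20 G2 and mitosis genes above 0 (percent, vertical axis) by raw UMIs per cell (horizontal axis, bins), for Prolif. PT, Injured PT and PT-S1 to S3 cells of the IRI library, with exact 95% intervals and the number of cells beside each point. The members run from 20% under 500 UMIs to 89.7% at 4000 or more, and the segments reach 1.55% in the deepest bin.

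Most members with S phase genes also carried late-phase genes. At least 2 of 20 S phase genes were above 0 in 63 of 155 IRI members (40.6%, 32.8 to 48.8), 11 of 16 control members (68.8%, 41.3 to 89), 17 of 135 Injured PT (12.6%) and 87 of 3261 segment cells (2.67%). Of the IRI members, 50 met both criteria (32.3%), 13 the S phase one alone (8.39%) and 54 neither (34.8%), and 19 had no gene of either list (12.3%). Among the 39 members with at least 4000 UMIs, 28 met both, 0 met the S phase criterion alone and 4 met neither. The late-phase criterion thus does not separate G2 or mitosis from S phase in these cells. Of the control members, 7 met both, 4 the S phase criterion alone and 3 neither.

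The level of a gene in members was set against the other cells as the log2 ratio of means, with 0.05 added to each mean, and a gene was counted from a 2-fold difference. As the clusters were made from these genes, the counts describe the members and test nothing. Against PT-S1 to S3, 167 of 10912 measured genes were higher (1.53%) and 96 lower (0.88%), and the median log2 ratio over all these genes was -0.03. Against Injured PT, 303 of 4822 were higher (6.28%) and 480 lower (9.95%), with a median of -0.06. Among cells with at least 2000 UMIs that balance turned, with 558 higher and 288 lower than in Injured PT. With totals taken without mitochondrial, ribosomal protein and haemoglobin genes, the higher share of the genes counted against Injured PT was 49.4%, against 38.7% as first scaled, and the ratios shifted by 0.14. Against the 16 control members, 470 of 3087 were higher in IRI members (15.2%) and 453 lower (14.7%), with a median of -0.13, so a 2-fold difference is common in that comparison.

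Genes of DNA replication were higher in members than in the segments. Of 28 measured genes of DNA synthesis, 14 were at least 2-fold higher and 0 lower, with a median log2 ratio of 1.07, and against Injured PT 9 of 21 were higher and 0 lower (median 0.82). Tk1, the thymidine salvage kinase, averaged 0.484 in IRI members, 1.06 in control members, 0.037 in Injured PT and 0.0178 in the segments. Rrm2, the small subunit of ribonucleotide reductase, averaged 0.316 in IRI members, 0.688 in control members, 0.0222 in Injured PT and 0.00951 in the segments. These means were higher in members although most members were at 0, with Tk1 above 0 in 49 and Rrm2 in 33 of 155 IRI members. Dut, Lig1, Tyms and Pcna had log2 ratios against the segments of 1.81, 1.71, 1.56 and 1.47. Pcna, the sliding clamp of replication, averaged 0.148 in IRI members and 0.0963 in Injured PT, a log2 ratio of 0.44. Origin licensing genes differed less, with 3 of 13 higher than in the segments (Gins2, Mcm3 and Mcm5 at 1.34, 1.23 and 1.08) and a median of 0.77.

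Histone and chromatin genes were the next group, with 7 of 13 measured higher than in the segments, 0 lower and a median of 1.38. H2afz, the H2A.Z histone variant, averaged 4.68 in IRI members, 7.25 in control members, 0.748 in Injured PT and 0.657 in the segments. Hmgb2, a chromatin bending protein, averaged 1.12, 3.44, 0.178 and 0.0984 in the same 4 groups, and was above 0 in 73 of 155 IRI members. Hmgn2 had a log2 ratio of 2.57 against the segments and 3.01 against Injured PT. Hist1h2bc, which encodes a core histone H2B, went the other way, at 1.14 in IRI members and 2 in the segments, a log2 ratio of -0.79 that is under 2-fold.

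Some cyclins, their kinases and partner proteins were higher than in the segments. Of 16 measured, 6 were higher than in the segments and 0 lower, namely Cdk1, Ccnb2, Cks1b, Ccnb1, Ccna2 and Cks2 at log2 ratios of 2.60, 2.48, 2.37, 2.36, 2.22 and 1.56. Ccnd1, the cyclin of the G1 response to growth signals, averaged 0.103 in IRI members, 0.348 in Injured PT and 0.15 in the segments, a log2 ratio of -1.38 against Injured PT. Of 5 measured CDK inhibitors, 3 were higher than in the segments (Cdkn3 2.48, Cdkn2c 1.63 and Cdkn2d 1.20). Cdkn1a, the p21 inhibitor induced by p53, was above 0 in 4 of 155 IRI members (2.58%), 1 of 16 control members, 8 of 135 Injured PT (5.93%) and 73 of 3261 segment cells (2.24%). Of 18 measured p53 targets and DNA damage genes, 0 were higher and 0 lower than in the segments (median -0.13). With 1.53% of all measured genes higher and 0.88% lower in that comparison, such a count is usual in a short list.

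The machinery of mitosis was higher in members than in the segments and in Injured PT. Against the segments, 11 of 13 mitotic kinase and checkpoint genes were higher (median 1.48), 19 of 23 spindle and cytokinesis genes (median 1.61), 10 of 12 kinetochore genes (median 2.09), 7 of 9 condensin and mitotic chromosome genes (median 1.69) and 4 of 9 genes of the anaphase-promoting complex (median 0.86), with 0 lower in any of them. Against Injured PT the counts were 10 of 12, 17 of 20, 9 of 9, 6 of 9 and 4 of 9, again with 0 lower. The medians there were 1.45, 1.60, 2.23, 1.30 and 0.75, and those of the kinases and the spindle genes were 1.17 and 1.41 with genes at 0 in Injured PT set to 3 counts over that group. Stmn1, which destabilises microtubules, averaged 2.52 in IRI members, 5.62 in control members, 0.385 in Injured PT and 0.136 in the segments, and was above 0 in 117 of 155 IRI members. The tubulins Tuba1b and Tubb5 had log2 ratios of 3.42 and 3.14 against the segments. Cdc20, an activator of the anaphase-promoting complex, averaged 0.297 in IRI members, 0.625 in control members, 0.0148 in Injured PT and 0.00521 in the segments. Spc25, a subunit of the Ndc80 kinetochore complex, averaged 0.594, 1.5, 0.0222 and 0.0886 in those groups. Plk1, a mitotic kinase, was above 0 in 16 IRI members and listed at 0 in all 16 control members and all Injured PT cells.

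**Figure D2:**
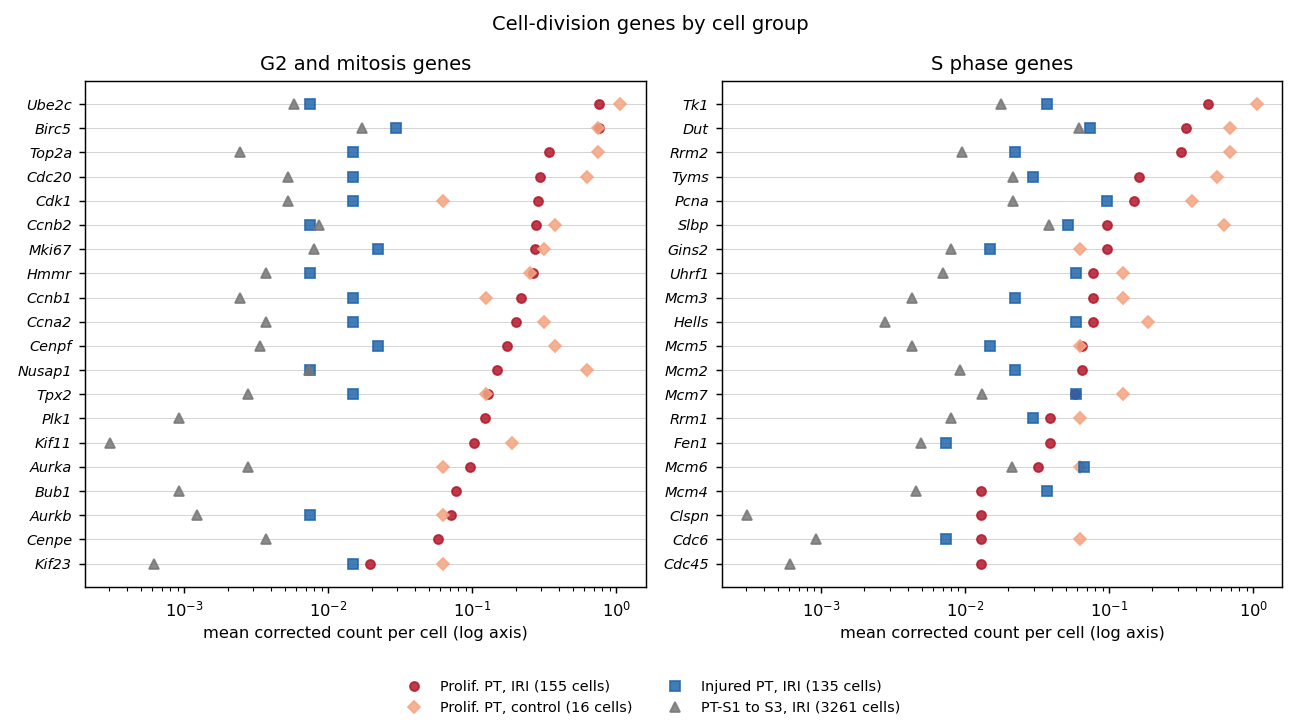
Mean corrected count per cell (log axis) of G2 and mitosis genes (one panel) and S phase genes (the other) in 155 IRI and 16 control Prolif. PT cells, 135 Injured PT and 3261 PT-S1 to S3 cells of the IRI library, where genes at 0 are not drawn. Ube2c lies at 0.761 and 1.06 in the 2 groups of members, against 0.00741 in Injured PT and 0.00583 in the segments.

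The plot of division genes shows both groups of members lying apart from the other tubule cells for most late-phase genes and less far apart for many S phase genes. Among genes outside the cell-cycle lists, the highest against the segments was Lockd, a long noncoding RNA that neighbours Cdkn1b, at 1.11 in IRI members, 1.88 in control members, 0.037 in Injured PT and 0.0359 in the segments. It was above 0 in 83 of 155 IRI members (53.5%) and in 92 of 3261 segment cells (2.82%). Cdkn1b itself averaged 0.0194 in IRI members and 0.0159 in the segments. Cdca3, Ccdc34, Mxd3, Hn1, Pmf1, Trim59, Dek, Serpinb8 and Tcf19 followed, with log2 ratios of 3.05, 2.61, 2.18, 1.97, 1.79, 1.75, 1.73, 1.72 and 1.64. Mxd3 belongs to the Myc and Max network, Pmf1 to a kinetochore complex, and Dek binds chromatin.

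Tubule identity was retained at a lower level. Of 29 measured genes of the identity list, 0 were higher and 6 lower than in the segments, with a median log2 ratio of -0.68 against -0.03 over all measured genes. Against depth-matched segment cells the median was -0.65 with 6 lower, where 1.68% of all measured genes were higher and 0.66% lower (median -0.01). Among cells with at least 2000 UMIs it was -0.90, where 3.14% of all measured genes were higher and 2.59% lower (median -0.05). The 30 genes summed to 69.1 in IRI members, 84.3 in control members, 84.9 in Injured PT and 93 in the segments, against 20.5 in Resid. Mac, 20.3 in vasculature and 7.7 in T cells. Without Gpx3 and Kap the sums were 22.1 in IRI members, 24.9 in control members, 29.3 in Injured PT and 37.8 in the segments, against 9.98 in Resid. Mac, 11.2 in vasculature and 2.81 in T cells. With all 30 genes PT-S2 had 75, PT-S1 103 and PT-S3 115, against 69.1 in IRI members. Without Gpx3 and Kap they had 32.3, 45.5 and 38.3, against 22.1. The IRI members thus lay below each segment by both sums, though near PT-S2 by the first. Among members, those with at least 2 late-phase genes had 73.4 and the others 63.3, and without Gpx3 and Kap these sums were 22 and 22.3.

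The abundant identity genes show how much was kept. Gpx3, a secreted glutathione peroxidase, averaged 39.1 in IRI members, 33.2 in control members, 47.5 in Injured PT, 41.8 in the segments and 3.68 in T cells. Slc34a1, the phosphate transporter of the brush border, averaged 1.31 in IRI members, 1.12 in control members, 3.67 in Injured PT and 2.1 in the segments. Lrp2, the endocytic receptor megalin, averaged 0.761 in IRI members, 0.25 in control members, 1.22 in Injured PT and 1.19 in the segments. None of these 3 genes was 2-fold lower than in the segments. The 6 that were are Pck1 (-1.38), Ttc36 (-1.30), Cndp2 (-1.20), Slc22a8 (-1.18), Slc5a8 (-1.16) and Miox (-1.03). Pck1, a rate-limiting enzyme of gluconeogenesis, averaged 0.794 in IRI members, 0.812 in control members, 1.37 in Injured PT and 2.14 in the segments, and was above 0 in 78 of 155 IRI members (50.3%) and 2306 of 3261 segment cells (70.7%).

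**Figure D3:**
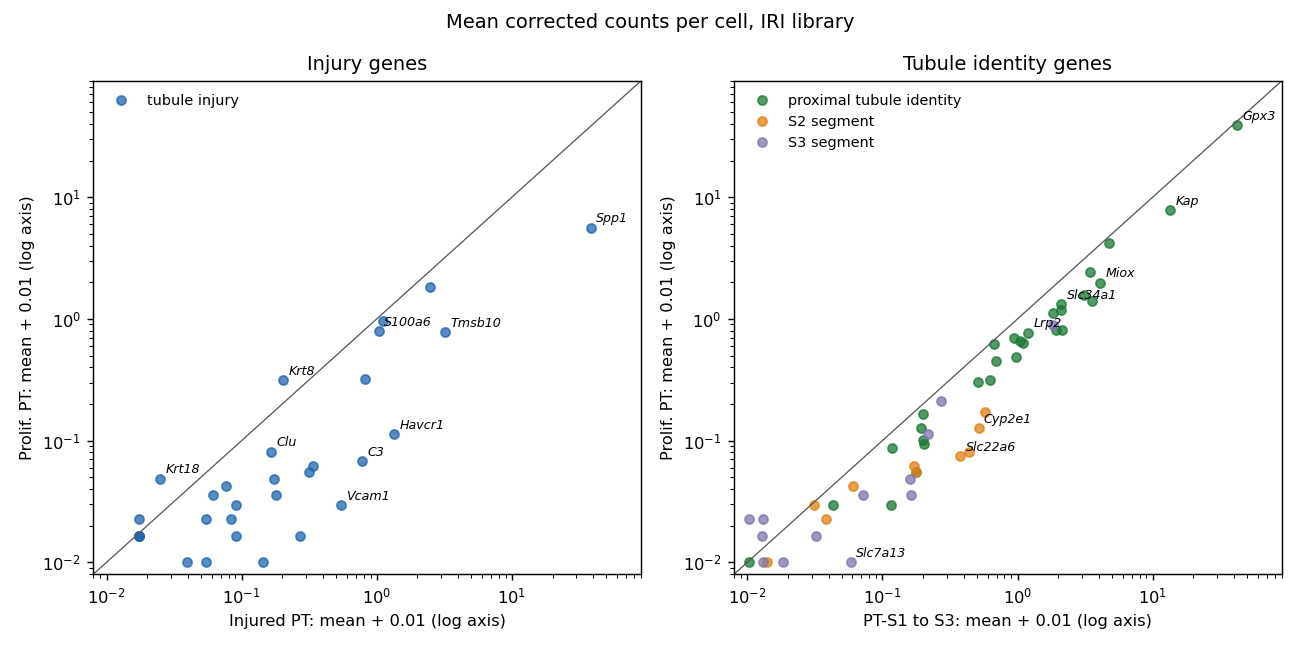
Mean corrected count plus 0.01 per gene on log axes, with Prolif. PT cells of the IRI library on the vertical axis. Left, injury genes against Injured PT cells, where Spp1 lies at 5.58 against 38.4; right, identity, S2 and S3 genes against PT-S1 to S3 cells, where most points lie under the line of equality, as for Pck1 at 0.794 against 2.14.

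Transporters and enzymes of the S2 list were the lowest of the tubule genes. Of 10 measured, 6 were at least 2-fold lower than in the segments and 0 higher (median -1.12, and -0.91 with 5 lower against depth-matched cells). Slc13a3, a sodium-dicarboxylate cotransporter, averaged 0.071 in IRI members, 0 in control members, 0.474 in Injured PT and 0.428 in the segments. Slc22a6, the organic anion transporter OAT1, averaged 0.0645 in IRI members, 0.312 in control members, 0.296 in Injured PT and 0.366 in the segments, and Cyp2e1, a xenobiotic-metabolising cytochrome, averaged 0.116, 0.25, 0.511 and 0.504. These genes were thus low in IRI members against both other tubule groups. The list summed to 0.574 in IRI members, 1.25 in control members, 2.28 in Injured PT and 2.3 in the segments. The cells named PT-S2 had 0.844 themselves, against 3.38 in PT-S1 and 3.67 in PT-S3, and against PT-S2 cells alone the ratios of Slc22a6 and Slc13a3 were -0.84 and -0.55. Among cells with at least 2000 UMIs the list summed to 0.697 in IRI members and 3.8 in the segments. The part of PT-S2 cells' low depth in that order was not tested.

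The other segment lists were nearer to the segments. Of 12 S1 genes 0 were higher or lower by 2-fold (median -0.55). With 1.53% of all measured genes higher and 0.88% lower there, a count of 0 is usual in a short list. The S1 list summed to 2.85 in IRI members, 2.69 in control members, 4.56 in Injured PT and 4.29 in the segments. Taken singly, PT-S1 had 7.51, PT-S2 2.22 and PT-S3 4.15, so IRI members lay within the range of the segments. Of 12 measured S3 genes 3 were lower, namely Slc6a18 (-1.41), Slco1a6 (-1.16) and Acy3 (-1.01), with a median of -0.46, and of -0.43 with genes at 0 in members set to 3 counts over the group. The S3 list summed to 1.31 in IRI members, 2.12 in control members, 2.07 in Injured PT and 2.74 in the segments. In the control library the segments had 3.6 for the S2 list and 6.43 for the S3 list, so the 16 control members were also below their own library's segments.

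Few regulators of the tubule program passed 2-fold against the segments. Of 16 measured transcription factors 1 was lower and 0 higher. Such counts are usual in a short list, as 1.53% of all measured genes were higher and 0.88% lower there. Hnf4a, the main regulator of proximal tubule genes, averaged 0.329 in IRI members, 0.459 in Injured PT and 0.4 in the segments. The median of the list was -0.20, and -0.35 with 0.01 added to each mean. The list summed to 1.59 in IRI members, 2.38 in Injured PT and 2.07 in the segments, with 1.27 in PT-S2 alone. Among cells with at least 2000 UMIs the sums were 2.32 in IRI members, 2.43 in Injured PT and 3.07 in the segments. Sox9, a regulator of nephron development and repair, was above 0 in 0 of 155 IRI members, in 17 of 135 Injured PT (12.6%) and in 36 of 3261 segment cells (1.1%). By the limit of 3 counts, 0 of 155 allows a share of cells with a detected molecule of up to 1.94%, which sets no limit on expression below detection in these shallower cells.

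Metabolic lists differed in size. Of 24 genes of fatty acid oxidation, 5 were lower than in the segments and 0 higher (median -0.49), among them Cyp4a14 (-1.89), Cyp4b1 (-1.54), Ehhadh (-1.41) and Eci1 (-1.12). Cyp4a14, a fatty acid hydroxylase, was above 0 in 1 of 155 IRI members and 338 of 3261 segment cells. The list summed to 4.61 in IRI members, 5.38 in control members, 4.99 in Injured PT and 7.18 in the segments, so the members were closer to Injured PT than to the segments here. Of 10 gluconeogenesis and fructose genes, 2 were lower (Pck1, and G6pc, glucose-6-phosphatase, at -1.39). None of 16 glycolysis genes (median 0.10) and none of 24 nuclear oxidative phosphorylation genes (median -0.08) differed by 2-fold from the segments. Over all measured genes only 1.53% were higher and 0.88% lower there, so a count of 0 is usual in a short list. Against Injured PT, 4 of those 24 were higher (Sdhb 1.26, Uqcrfs1 1.20, Sdhd 1.04 and Cycs 1.01) and 0 lower, with a median of 0.44. Nucleotide and one-carbon genes had 3 of 22 higher than in the segments (Tyms and Phgdh among them), and ribosome biogenesis 1 of 20 (Nop58), with medians of 0.06 and 0.27.

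**Figure D4:**
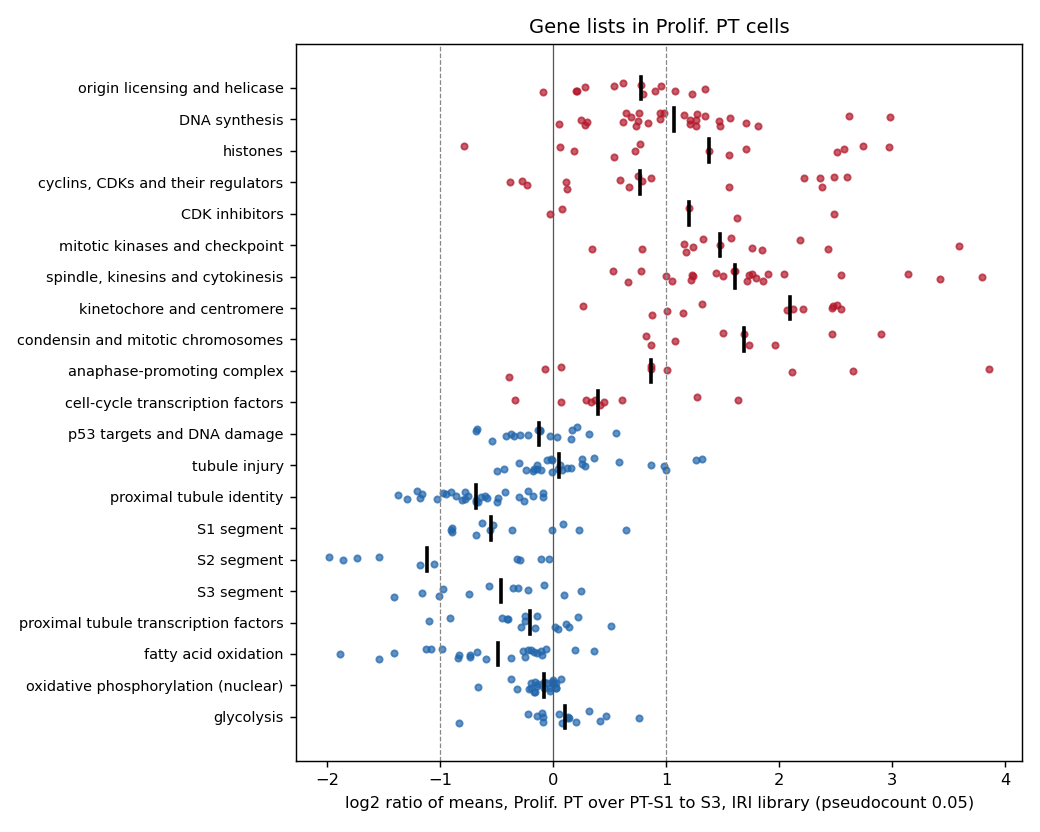
Log2 ratio of Prolif. PT over PT-S1 to S3 cells of the IRI library (horizontal axis) for the measured genes of 21 gene lists (rows), where each dot is a gene, the bar is the list's median and dashed lines mark 2-fold. The mitotic kinase, spindle, kinetochore and condensin lists have medians from 1.48 to 2.09, while the identity list lies at -0.68 and the S2 list at -1.12.

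The plot of list ratios shows the medians of the kinase, spindle, kinetochore and condensin lists past the upper 2-fold line and that of the S2 list past the lower one. Outside the lists, the lowest named genes against the segments were Cml1 (-1.85), Ugt3a2 (-1.79), Ttr (-1.77), Slc47a1 (-1.73), Snhg11 (-1.71), Timp3 (-1.70), Tgoln1 (-1.68), Slc17a3 (-1.68), Neat1 (-1.61) and Errfi1 (-1.60). Slc47a1 is the MATE1 drug exporter and Slc17a3 an organic anion transporter. Ttr, the thyroxine carrier transthyretin, averaged 0.439 in IRI members, 0.688 in control members, 0.807 in Injured PT and 1.61 in the segments. Against PT-S2 cells alone, Neat1 (0.49) and Timp3 (0.11) were on the other side of 0.

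Genes of tubule injury were far below their level in Injured PT and much nearer to that of the segments. Of 22 measured, 13 were at least 2-fold lower than in Injured PT and 0 higher (median -1.27), while against the segments 2 of 28 were higher and 0 lower (median 0.05, and 0.14 with genes at 0 in members set to 3 counts over the group). Against depth-matched segment cells 4 were higher, and among cells with at least 2000 UMIs the median was 0.32. The list summed to 11.1 in IRI members, 51.9 in Injured PT and 8.78 in the segments, and without Spp1 to 5.54, 13.5 and 3.16. Among cells with at least 2000 UMIs these sums were 16, 52.3 and 10.1, and without Spp1 6.89, 13.2 and 3.26. The deeper members thus lay above the pooled deeper segment cells. By segment, at all depths, PT-S1 had 6.27, PT-S2 5.36 and PT-S3 18.3, against 11.1 in IRI members. Without Spp1 the segments had 2.49, 2.94 and 4.41, against 5.54. The IRI members thus lay below PT-S3 with Spp1 and above each segment without it. The list is not particular to Injured PT cells. In the IRI library it summed to 30.7 in T cells and 18.7 in vasculature at all depths. Resid. Mac cells had 8.57 and tDL cells of cluster 9 had 97.6. Without Spp1 these sums were 29.8, 17.3, 6.36 and 60. Havcr1, the injury receptor Kim-1, averaged 0.103 in IRI members, 0 in control members, 1.33 in Injured PT and 0.0761 in the segments. It was above 0 in 9 of 155 IRI members (5.81%, 2.69 to 10.7), 47 of 135 Injured PT (34.8%, 26.8 to 43.5), 154 of 3261 segment cells (4.72%) and 4 of 97 T cells (4.12%). The share in members lies within counting error of the segments and of T cells. Vcam1, an adhesion molecule of unrepaired tubule, was above 0 in 3 of 155 IRI members (1.94%), 33 of 135 Injured PT (24.4%) and 58 of 3261 segment cells (1.78%). The Injured PT cells were also the deepest. A depth-matched draw from them was not possible, as at least 1 of the 10 UMI bins held fewer Injured PT cells than members. Under 1000 UMIs there were 1 Injured PT cell and 55 IRI members. C3, Cp, Anxa2, Anxa3 and Cryab had log2 ratios against Injured PT of -2.91, -2.45, -1.89, -1.89 and -1.27.

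Spp1, which encodes the secreted matrix protein osteopontin, was present in most members but not at the level of injured cells. It averaged 5.58 in IRI members, 0.312 in control members, 38.4 in Injured PT and 5.62 in the segments, and its medians were 3, 0, 28 and 3. It was above 0 in 135 of 155 IRI members (87.1%), 3 of 16 control members (18.8%), all 135 Injured PT and 2727 of 3261 segment cells (83.6%). T cells of the IRI library had it in 51 of 97 cells (52.6%) with a mean of 0.928, which is above the mean in control members. The part of such background in the difference between libraries was not tested. Krt8, a keratin, and S100a6, a calcium-binding protein, were the 2 injury genes higher than in the segments. Krt8 averaged 0.303 in IRI members, 0.188 in control members, 0.193 in Injured PT and 0.0972 in the segments, and was above 0 in 36 of 155 IRI members (23.2%, 16.8 to 30.7) and 249 of 3261 segment cells (7.64%). S100a6 averaged 0.781 in IRI members and 0.284 in the segments, but 1 member held 48 of the summed 121, and the mean without it was 0.474.

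Within the members, injury genes summed higher in the cells with at least 2 late-phase genes, which were also the deeper ones. The 30 injury genes summed to 14.2 in members with at least 2 late-phase genes and 7.07 in the other 67, and without Spp1 to 6.44 and 4.36. Among members with at least 2000 UMIs the sums were 17.6 in 55 cells and 7.82 in 11 cells, and without Spp1 7.53 and 3.73. Those 55 and 11 cells still differed in depth, with medians of 5368 and 3148 UMIs. At least 2 leukocyte markers were found in 10 of the 55 and 1 of the 11. The part of depth and of such cells in these sums was not tested. S1 transcripts summed to 3.77 in members with at least 2 late-phase genes and 1.63 in the others, and among members with at least 2000 UMIs to 4.95 and 3.09. For S3 transcripts the direction turned with depth, at 1.01 and 1.7 over all members and 0.909 and 0.545 among those with at least 2000 UMIs.

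The genes furthest below Injured PT by the naming rule also included Malat1, Neat1, Fga, Fgg and Slc13a1. Malat1, a nuclear noncoding RNA, averaged 14.7 in IRI members, 38.6 in control members, 127 in Injured PT and 27.9 in the segments, with medians of 3, 0.5, 92 and 2. Neat1, another, averaged 0.135 in IRI members, 0.562 in control members, 2.41 in Injured PT and 0.516 in the segments. The fibrinogen chains Fga and Fgg had log2 ratios of -2.94 and -2.82 against Injured PT. Genes of growth factor and YAP response were lower in 4 of 8 measured and higher in 0 (median -1.07): Cyr61, a YAP target, averaged 0.142 in IRI members, 0.948 in Injured PT and 0.201 in the segments, and the receptors Igf1r and Egfr had ratios of -2.22 and -1.37. Slc13a1, a sulfate transporter, averaged 0.29 in IRI members, 2.24 in Injured PT and 0.496 in the segments.

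Arginine and polyamine genes are of interest because the series concerns arginase-1 in macrophages. Arg1 was above 0 in 0 of 155 IRI members, which allows a share of cells with a detected molecule of up to 1.94% by the same limit, in 0 of 135 Injured PT and in 23 of 3261 segment cells (0.705%). Odc1, the rate-limiting enzyme of polyamine synthesis, averaged 1.28 in IRI members, 2.69 in control members, 0.422 in Injured PT and 1.31 in the segments. Against the segments 0 of 12 measured genes of the list differed by 2-fold (median -0.12). That is usual for a short list where 1.53% of all measured genes were higher and 0.88% lower. Against Injured PT 2 of 10 were higher (Odc1 1.50 and Oaz1 1.01) and 1 lower, Arg2 (-1.05), with a median of 0.27. Over all measured genes 6.28% were higher and 9.95% lower in that comparison, so 1 lower of 10 is near that share.

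Members of the IRI library had lower DNA synthesis, histone, kinetochore and condensin genes and higher injury genes than the 16 control members. For the late-phase list the median had no stable sign. With the alternative scalings the higher share of the genes counted was 80.1% (scaled by the median ratio over genes), 76.6% (by a trimmed mean of the log ratios) and 69.4% (by totals without mitochondrial, ribosomal protein and haemoglobin genes), against 50.9% as first scaled. They shifted all ratios by 0.54, 0.46 and 0.33. Over all measured genes 15.2% were higher in IRI members and 14.7% lower as first scaled. Of 18 measured late-phase genes 3 were higher in IRI members and 2 lower, near those shares. Their median was -0.08, or -0.42 with genes at 0 in control members set to 3 counts over that group. This median is of the size of the shift, so it has no stable sign. Of 17 DNA synthesis genes 0 were higher and 6 lower (median -0.90), and of 9 kinetochore genes 0 were higher and 4 lower (median -0.92). The condensin list had 0 of 9 higher and 3 lower (median -0.78), and the histone list 0 of 12 and 3 (median -0.77). The medians of these lists are below 0 by more than the largest shift. Those of origin licensing (-0.46), cyclin (-0.34), mitotic kinase (0.06), spindle (-0.26) and anaphase-promoting complex genes (-0.51) are not. The members also differed in depth, with medians of 1544 UMIs in the IRI library and 2934 in the control library. The part of depth was not tested.

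Injury genes were higher in IRI members in 5 of 9 measured and lower in 1, with a median of 1.28, or 0.57 with the 4 genes at 0 in control members set to 3 counts over that group. The injury list summed to 11.1 in IRI members, against 3.62 in control members, 8.78 in the IRI segments and 1.63 in the control segments. Without Spp1 the sums were 5.54 in IRI members, 3.31 in control members, 3.16 in the IRI segments and 1.43 in the control segments, so the segments differed between libraries in the same direction. Besides Spp1, the highest named genes were Cpn1, S100a6, Tmsb10, Slc4a4, Wfdc2, Taldo1 and Slc13a1, all listed at 0 in the 16 control members. Cpn1, a carboxypeptidase subunit, was above 0 in 73 of 155 IRI members and Slc4a4, the basolateral bicarbonate cotransporter, in 39. Tmsb10 averaged 0.768 in IRI members and 21.4 in T cells of that library, and S100a6 3.06 in those T cells.

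Immediate early genes were lower in IRI members in 5 of 6 measured (median -1.90), a group known to respond to stress and to tissue digestion. Dusp1, a phosphatase of this group, averaged 0.129 in IRI members and 1.12 in control members, and was above 0 in 7 of 155 and 5 of 16 cells. Jun averaged 0.213 in IRI members and 1.56 in control members, where 2 of 16 cells held all 25 corrected counts. Mt2, a metallothionein, rested likewise on 2 control cells, and among cells with at least 2000 UMIs its ratio had the other sign (2.55). Dbp, a clock-controlled transcription factor, averaged 0.142 in IRI members and 0.75 in control members, and was above 0 in 14 of 155 and 9 of 16 cells. Gchfr (-2.17), Zbtb20 (-2.12), Cox19 (-1.99) and Cetn3 (-1.91) were the other named genes lower in IRI members.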

How the data were processed

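Droplet single-cell libraries of 1 IRI and 1 control kidney were deposited as joint tables of 15169 genes and 11759 cells. Per the submitters' processing notes, Cell Ranger 3.0.0 with mm9 and Seurat 3.2 were used. The main table is a score: the deposited values are corrected counts of the kind SCTransform gives, not raw counts, with cell totals from 1468 to 3212. A further deposited table is their natural log after adding 1 (largest difference 5.3e-15), and another, also a score, holds residuals of 3000 genes, used only as a check. The plan had assumed raw counts, so cells were not thinned and no count model was run. The deposited annotation (other values: names, UMIs, genes, clusters) lacked separators. Where several splits into UMIs and genes were possible (3615 cells), the earliest leaving 200 genes or more was used. UMIs so read followed the Top2a residuals (Spearman rho -0.998 over 11523 cells, a check across cells).

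Means per cell were compared as log2 ratios after adding 0.05, for genes with at least 10 summed values, counting from 2-fold. Depth-matched segment cells were drawn in 10 UMI bins. Intervals (95%) are exact: Clopper-Pearson for a share and conditional for the ratio between shares. A count of 0 allows up to 3 counts of the total. The members, the 32 gene lists (618 of 631 genes in the table) and the 16 marker sets were chosen with earlier results of these data known. Named genes are the 15 highest and 15 lowest against the segments, 12 and 12 against Injured PT and 8 and 8 between libraries (at least 30 summed values and a mean of 0.1), 10 more outside the cell-cycle lists, and list members. Promoters are RefSeq GRCm38.p6, and no coordinates of mm9 are used. The scripts were tested on simulated data. Tools were Python 3.11.15, numpy 2.4.6, pandas 2.3.3, scipy 1.17.1 and matplotlib 3.10.9. Values of a few single genes are not reported here. Other pseudocounts, filters, scalings and cell subsets were tried as alternatives.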

Additional observations from a re-analysis of the deposited data

How the results depend on the processing

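No paired analysis was possible because each condition is 1 library. The share ratio between libraries stayed from 9.46 to 17.1. The share of members with late-phase genes was 80% with at least 1 gene, 41.9% with 3, 27.1% with a value of at least 2 and 83.3% among cells with at least 2000 UMIs. Counts of genes past 2-fold moved with the pseudocount, the filter, the cells used and, between libraries, the scaling, and the cause was not tested. Against the segments, 738 were higher and 995 lower with a pseudocount of 0.01, 93 and 39 with 0.1, and 6 and 0 with 1. At least 100 summed values left 77 higher. Cells with at least 2000 UMIs gave 343 higher and 283 lower. Members with at least 2 late-phase genes gave 326 higher, and the others 96 higher and 520 lower. PT-S1 alone gave 398 lower, PT-S2 alone 261 higher and 30 lower and PT-S3 alone 239 lower, choices added after seeing the data. Against Injured PT, the pseudocounts gave 642 and 957, 147 and 228, and 7 and 14, the filter 85 and 68, and cells with at least 2000 UMIs 558 and 288. IRI against control members gave 145 and 277 with 0.1, 2 and 5 with 1, 736 and 1117 without a filter, 15 and 18 with at least 100 summed values, and 175, 145 and 233 lower when scaled by the trimmed mean, the median ratio and the reduced totals. The median of CDK inhibitors against the segments was -0.40 in members without 2 late-phase genes, and Neat1 (0.49) and Timp3 (0.11) against PT-S2 alone and Mt2 (2.55) between libraries at 2000 UMIs or more changed sign. Depth matching of Injured PT was not possible with the 10 UMI bins used.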
